A study of Rattus norvegicus with 6 samples.

Results

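The microRNAs miR-26a and miR-26b were followed in rat myocardium after experimental myocardial infarction (MI), on every arm that the array carried. The members were taken by name, as all array entries that start with rno-miR-26a or rno-miR-26b. The family was chosen with earlier results of these data known. This gave 4 of the 758 rat miRNAs on the array, which were rno-miR-26a-5p, rno-miR-26a-3p, rno-miR-26b-5p and rno-miR-26b-3p, written below without the species prefix. The 5p arms are the guide strands that are usually loaded into the silencing complex, and the 3p arms are their passenger strands. Both guide arms were detected on 6 of 6 arrays and neither passenger arm was detected on any array.

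The arrays compared a control group of 3 male Sprague-Dawley rats, in which a thread was passed under the left anterior descending coronary artery without tying it, with a model group of 3 male rats in which that artery was ligated. The myocardium was collected 4 weeks after the operation, in the model group from the margin of the infarct, and total RNA of 1 rat was hybridised to each single-colour Agilent array. Beyond the operation, the labels give the rats no engineered allele and no treatment, and they give no age. The question was which miRNAs differ in the fibrotic heart after infarction. All 6 arrays lay on 1 slide and shared 1 scan time. The first row of the slide held the 3 control arrays and model array 1, and the second row held model arrays 2 and 3.

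The miR-26 family is carried within introns of genes for small phosphatases of the RNA polymerase II tail, Ctdspl for miR-26a and Ctdsp1 for miR-26b, and is made along with them. Its guide strands repress Ezh2, the histone methyltransferase of the Polycomb repressive complex, and have been described as restraining cell growth. In the heart, miR-26a has been described as limiting fibrosis by repressing collagen I and connective tissue growth factor in fibroblasts, and as limiting hypertrophy through the transcription factor Gata4.

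The mature sequences show why both guides are treated as 1 family. They were taken from RefSeq (rat assembly GRCr8) by miRNA name, which matched 4 of 4 members, and are written 5′ to 3′ with the seed, bases 2 to 8, in capitals.
miR-26a-5p: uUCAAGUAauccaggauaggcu
miR-26b-5p: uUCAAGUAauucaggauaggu
miR-26a-3p: cCUAUUCUugguuacuugcac
miR-26b-3p: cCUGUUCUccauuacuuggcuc
The guides share the seed UCAAGUA, which was held by 2 of the 685 array miRNAs that could be matched by name to a sequence, miR-26a-5p and miR-26b-5p themselves. The rest of the 758 were not looked up. The guide of miR-26a has 22 bases and that of miR-26b has 21 bases. Over the 21 positions that can be compared, 19 are identical. The differences are C11U and C21U, with the base of miR-26a first and positions counted from 1 at the 5′ end, and both lie outside the seed. The passenger arms are less alike, with 14 of 21 positions identical, and their seeds differ.

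The precursors place both arms of each miRNA on 1 hairpin. They are shown with the mature arms in capitals, the 5p arm first.
Mir26a: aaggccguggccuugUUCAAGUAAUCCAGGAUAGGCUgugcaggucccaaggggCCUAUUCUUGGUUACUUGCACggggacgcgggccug
Mir26b: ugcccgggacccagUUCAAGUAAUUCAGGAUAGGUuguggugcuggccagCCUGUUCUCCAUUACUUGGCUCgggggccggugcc
In GRCr8 the 90-base Mir26a hairpin lies at chr8:127633048-127633137 on the plus strand, inside the span of Ctdspl on the same strand. The 85-base Mir26b hairpin lies at chr9:83425709-83425793 on the plus strand, inside Ctdsp1 on the same strand. The miR-26a-5p arm is chr8:127633063-127633084 and the miR-26b-5p arm is chr9:83425723-83425743. The probe sequences were not used here, so whether a probe for one guide also binds the other, which differs from it at 2 compared positions, was not tested.

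The signal of a miRNA is given here as the summed intensity of its detected probes, in the scanner software's background-subtracted units, and a probe counts as detected where its signal is over 3 times its error. Signals of different miRNAs come from different probes, so a ratio or a rank between miRNAs describes signal and not numbers of molecules. Of the 758 miRNAs, 206 to 222 were detected on each array, and no spot of a miRNA probe was saturated. The number of arrays limits the precision of every comparison between the groups.

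The summed signal of miR-26a-5p was 1372, 1779 and 1232 units on control arrays 1 to 3, and 1707, 1636 and 1500 units on model arrays 1 to 3. The highest and the lowest of the 6 signals were both control arrays, and the model arrays lay between them. The mean was 1461 ± 284 units for the control and 1615 ± 105 units for the model arrays (SD, n = 3 each). MiR-26a-5p ranked 9th to 10th by signal among the miRNAs of a control array and 12th to 13th on a model array, and carried 2.10% to 2.41% of the summed signal of all miRNAs.

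The summed signal of miR-26b-5p was 307, 428 and 245 units on control arrays 1 to 3, and 343, 349 and 295 units on model arrays 1 to 3. As for miR-26a-5p, control arrays 2 and 3 gave the highest and the lowest signal, with the model arrays between. The mean was 327 ± 92.9 units for the control and 329 ± 29.5 units for the model arrays (SD, n = 3 each). MiR-26b-5p ranked 33rd to 39th on the 6 arrays and carried 0.425% to 0.516% of the summed signal.

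**Figure D1:**
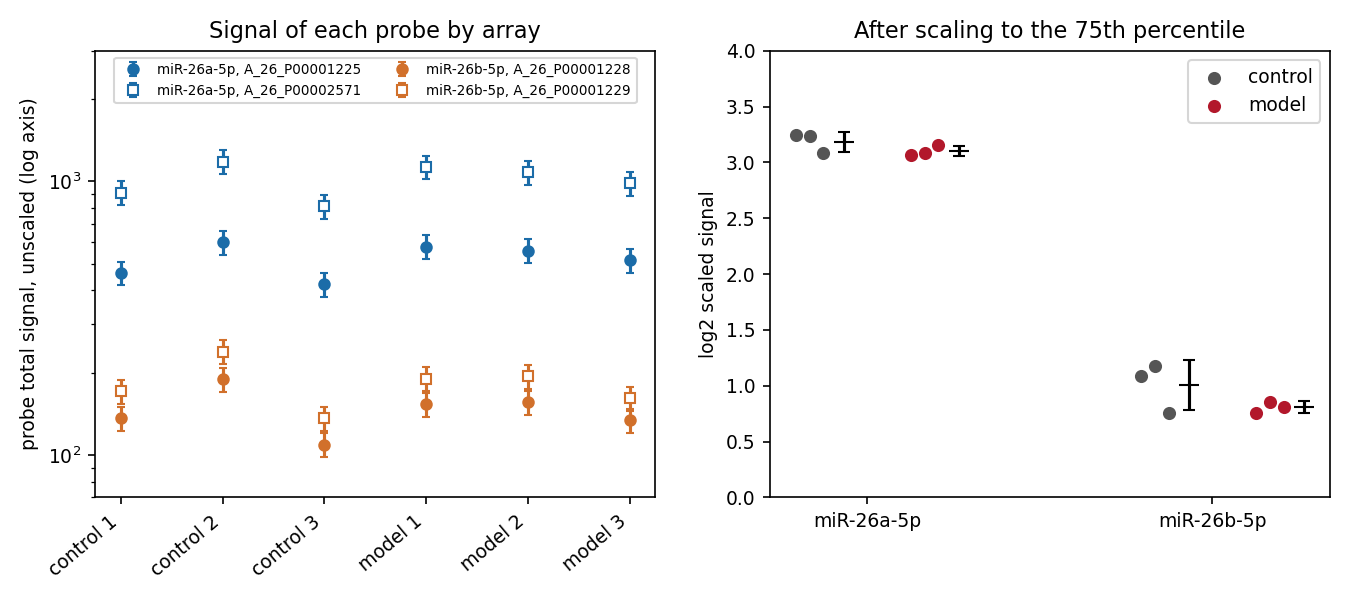
Left, unscaled signal of each probe of the guide arms by array on a log axis, with the scanner software's error as bars. Right, log2 scaled signal of miR-26a-5p and miR-26b-5p by array, with the mean and SD of each group of 3 arrays. The probes of one miRNA run in parallel over the arrays, and control and model arrays overlap for both miRNAs.

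Each guide was read by 2 probes of 8 spots each, which gave like profiles. For miR-26a-5p, probe A_26_P00002571 gave 1.91 to 1.96 times the signal of probe A_26_P00001225 on the 6 arrays. For miR-26b-5p, probe A_26_P00001229 gave 1.20 to 1.26 times the signal of probe A_26_P00001228. The coefficient of variation over the spots of a probe was 0.320% to 4.90% with a median of 2.05%.

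Neither passenger arm rose above the detection limit. MiR-26a-3p was covered by 2 probes, whose signals were -0.79 to 0.035 units on the 6 arrays, or -1.10 to 0.040 times their own error. MiR-26b-3p was covered by 4 probes, whose signals were -0.155 to 1.02 units, at most 2.25 times their error. For comparison, the lowest summed signal of any detected miRNA was between 1.16 and 1.60 units on the 6 arrays. The passenger arms were not well above background in both groups, so no fold change is given for them.

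To compare the groups, signals were scaled within each array to the 75th percentile of 198 miRNAs, those found on 6 of 6 arrays, and log2 was taken. On this log2 scaled signal, miR-26a-5p was at 3.24, 3.23 and 3.08 on control arrays 1 to 3 and at 3.07, 3.08 and 3.16 on model arrays 1 to 3. Control array 3 lay among the model arrays and the other control arrays lay above all of them, so the groups overlapped. The mean was 3.19 ± 0.09 for the control and 3.10 ± 0.05 for the model arrays (SD, n = 3 each).

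The model minus control difference of miR-26a-5p was -0.08 on the log2 scale (SE 0.08, limma, adjusted p = 0.449 over the 214 miRNAs tested). This equals a ratio of 0.945 with a 95% interval of 0.825 to 1.08. The exact permutation test of 3 arrays against 3, two-sided, gave p = 0.30, where the smallest p it allows is 0.10. A lower signal of miR-26a-5p in the model group was therefore not shown, and on this scaling the interval leaves out a fall to a ratio below 0.825.

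MiR-26b-5p was at 1.08, 1.18 and 0.75 on control arrays 1 to 3 and at 0.76, 0.86 and 0.81 on model arrays 1 to 3, in log2 scaled signal. Control array 3 was the lowest of all 6 and control arrays 1 and 2 were the highest. The mean was 1.01 ± 0.22 for the control and 0.81 ± 0.05 for the model arrays (SD, n = 3 each).

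The model minus control difference of miR-26b-5p was -0.20 on the log2 scale (SE 0.13, limma, adjusted p = 0.288). The ratio was 0.872, with a 95% interval of 0.703 to 1.08. The exact permutation test gave p = 0.40. Without control array 3 the difference was -0.32 and the limma adjusted p was 0.0626, so this 1 library moved the value by more than 1.5 times without bringing it past the threshold of 0.05. For miR-26a-5p the same omission gave -0.13, with an adjusted p of 0.267. Leaving out control array 2 moved the difference of miR-26b-5p the other way, to -0.11 (limma adjusted p = 0.542).

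The single probes gave the same direction. The log2 differences of both miR-26a-5p probes were -0.07 and -0.09, with adjusted p of 0.576 and 0.506 over all probes tested. Those of the miR-26b-5p probes were -0.18 and -0.21, with adjusted p of 0.305 and 0.254.

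These values stand against a background in which many miRNAs differed. Of the 214 miRNAs tested, 49 (22.9%) passed an adjusted p of 0.05, 22 (10.3%) upwards and 27 (12.6%) downwards in model rats. Of the same 214, 81 (37.9%) had an unadjusted p under 0.05, 51 of them (23.8%) downwards, and the groups did not overlap for 101 miRNAs (47.2%). A change of over 2-fold was called for 11 (5.14%) with the adjusted limma p and for 11 (5.14%) with the methods' t-test at its unadjusted threshold of 0.05. Neither guide of miR-26 was among the miRNAs of any of these counts. Both guides were among the 87 miRNAs (40.7%) whose log2 difference was within 0.20 of 0. On this scaling the 198 miRNAs found on every array had a median log2 difference of -0.15, and relative to that median miR-26a-5p was at 0.066 and miR-26b-5p at -0.05.

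**Figure D2:**
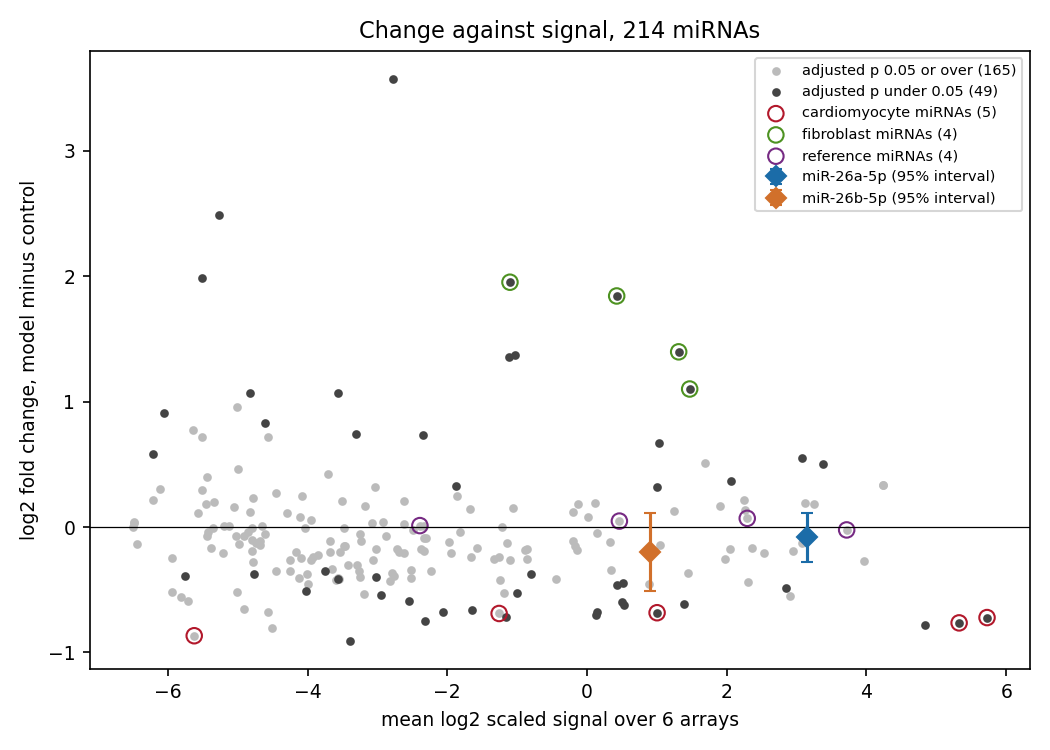
Model minus control difference in log2 scaled signal against mean log2 scaled signal for the 214 miRNAs tested, with cardiomyocyte, fibroblast and reference miRNAs ringed and 95% intervals on miR-26a-5p and miR-26b-5p. Both guides lie near 0 at high signal, at -0.08 and -0.20, between the fibroblast miRNAs above and the cardiomyocyte miRNAs below.

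The spread of miR-26a-5p between rats of 1 group was small. Its pooled SD was 0.07 on the log2 scale against a median of 0.17 over the 198 miRNAs, and 19 of them had a smaller one. Its difference between the groups was smaller in size than that of 169 of the 198 miRNAs. MiR-26b-5p had a pooled SD of 0.16, and 93 miRNAs had a smaller one. Its difference was smaller in size than that of 116 miRNAs.

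The signal of one guide relative to the other does not depend on how arrays are scaled, where a scaling divides all signals of an array by 1 number. MiR-26a-5p gave 4.46, 4.16 and 5.02 times the signal of miR-26b-5p on control arrays 1 to 3, and 4.98, 4.68 and 5.08 times on model arrays 1 to 3. The model arrays lay towards the upper end, and control array 3 lay within their range. On the log2 scale the mean within-array difference was 2.18 ± 0.14 for the control and 2.30 ± 0.06 for the model arrays (SD, n = 3 each). The groups differed by 0.11, which was not beyond the spread between rats (exact permutation test, p = 0.30, or 0.355 after Benjamini-Hochberg adjustment over 13 within-array comparisons).

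Other miRNAs that have been described as limiting cardiac fibrosis or hypertrophy, the miR-29, miR-30, miR-101 and miR-1/133 families with miR-24-3p, gave 0 higher and 5 lower of 14 tested, with a median log2 difference of -0.45. Of all 214 miRNAs tested, 10.3% were higher and 12.6% lower. The 5 were miR-30b-5p, miR-30e-5p, miR-1-3p, miR-133a-3p and miR-133b-3p. This list was chosen with earlier results of these data known, so its calls are no independent test. The number of calls depended on single arrays: without control array 1, control array 3 or model array 1 the count was 0 lower, and without control array 2 it was 1, although the median stayed between -0.52 and -0.31 with any 1 array left out. It was also 0 with the methods' t-test and with replicate number or slide row as a block. The count was 9 lower with normexp background correction and 7 when all miRNAs set the percentile. With each array centred on the reference miRNAs it was 6. Without scaling 0 of the 14 were called and the median was -0.21. With the scanner software's own total per miRNA 1 was higher and 0 lower, with a median of -0.11. With each array centred on its median deviation 1 was higher and 2 lower, and with each array centred on the cardiomyocyte miRNAs 3 were higher and 0 lower, with a median of 0.27.

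MiR-1-3p and the miR-133 pair, which are made in striated muscle cells, had log2 differences of -0.76 to -0.68, and 3 of 3 were lower, with limma adjusted p of 0.0203 for miR-1-3p, although none passed without control array 1, control array 3 or model array 1. The miR-30 family, abundant in cardiomyocytes and described as repressing connective tissue growth factor, had log2 differences of -0.61 to -0.44, with 2 of 5 lower. With 1 array left out, 2 passed without model array 3 and 0 without each of the other arrays. MiR-30e-5p was at -0.61 (adjusted p = 0.0441) and miR-30c-5p at -0.55 (adjusted p = 0.0762). The miR-29 family, which represses collagens, had log2 differences of -0.36 to -0.13 and 0 of 3 passed, with miR-29a-3p at -0.13 (adjusted p = 0.486). Both miR-101 members were at 0.01 and 0.17, with 0 of 2 past the threshold, and miR-24-3p was at 0.19 (adjusted p = 0.122).

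Of 5 tested miRNAs described as promoting cardiac fibrosis, 3 were higher in the model group and 0 lower, with a median log2 difference of 1.07. The shares over all 214 miRNAs were 10.3% higher and 12.6% lower. The 3 were miR-21-5p, with a log2 difference of 1.10 (adjusted p = 0.0104), miR-155-5p, and miR-199a-5p at 1.95 (adjusted p = 0.00147). MiR-21-5p and miR-199a-5p are also in the fibroblast list below, and miR-155-5p is also in the leukocyte list. This list, too, was chosen with earlier results of these data known, so its calls are no independent test. MiR-34a-5p was at 0.12 (adjusted p = 0.352), and miR-208a-3p, which was detected on 5 of 6 arrays and is made in cardiomyocytes, was at -0.87 (adjusted p = 0.0988). A sixth, miR-433-3p, was not detected on any array. The count of 3 became 2 with normexp, with the replicate number as a block and without control array 1, became 1 with slide rows as a block, and became 4 with cardiomyocyte centring. When all miRNAs set the percentile, 1 was lower. The median was 0.081 with normexp, 0.46 with the software's totals and 1.78 with cardiomyocyte centring. On the scaling of the main values, both guides of miR-26 lay far below the 3 higher miRNAs. The upper bounds of their 95% intervals were at 0.11 on the log2 scale. MiR-34a-5p lay close to that bound, and miR-208a-3p lay below both guides. The bounds of miR-26a-5p and miR-26b-5p were 0.47 and 0.46 with the software's totals, and 1.07 and 0.99 with cardiomyocyte centring.

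MiRNAs often used as references gave a further yardstick. Of 5, miR-191a-5p was not detected, and the other 4 gave 0 calls and a median log2 difference of 0.03. MiR-16-5p was at 0.07 (adjusted p = 0.660), miR-103-3p at 0.05 (adjusted p = 0.680) and let-7a-5p at -0.02 (adjusted p = 0.861).

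Markers of some cell types differed between the groups. Some of these markers are also members of the lists above, so the counts are not separate from those given there. The marker lists, too, were chosen with earlier results of these data known. The summed scaled signal of the cardiomyocyte miRNAs was 114 to 138 on control and 60.9 to 85.1 on model arrays, with 3 of 5 tested lower and miR-208b-3p not detected on any array. That of the fibroblast miRNAs was 3.85 to 4.74 on control and 10.2 to 14.4 on model arrays, with 4 of 4 higher. The endothelial miRNAs, both arms of miR-126a, had 2 of 2 lower with a sum of 8.16 to 9.17 against 5.98 to 6.66. Of 5 leukocyte miRNAs, miR-155-5p was higher and miR-150-5p lower, and their sums were 2.85 to 3.47 and 2.03 to 2.51. The smooth muscle list had 0 of 2 called, and the red blood cell list 1 of 2 lower. These counts stand against 10.3% higher and 12.6% lower of all 214 miRNAs tested. Without control array 1 the cardiomyocyte, endothelial, leukocyte and red blood cell lists had 0 calls, while the fibroblast list had 4 of 4 higher without any 1 array. The cardiomyocyte list also had 0 calls without control array 3 or model array 1. It had 0 calls with the methods' t-test and with replicate number or slide row as a block. Its median log2 difference stayed between -0.83 and -0.56 with any 1 array left out. Markers of liver, brain and pancreas (miR-122-5p, miR-124-3p, miR-9a-5p and miR-375-3p) were not detected on any array. The part of these shifts in the values of the miR-26 guides was not tested, and in bulk tissue fewer cells of a type and less RNA per cell cannot be told apart.

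Within arrays, the guides were set against the mean log2 signal of each list, over the members detected on all 6 arrays. MiR-26a-5p was 0.13 ± 0.16 above the mean of 4 cardiomyocyte miRNAs on control arrays and 0.76 ± 0.23 above it on model arrays. It was 3.45 ± 0.08 above the mean of 4 fibroblast miRNAs on control arrays and 1.79 ± 0.28 above it on model arrays (SD, n = 3 each). Relative to cardiomyocyte miRNAs it was thus higher in the model group by 0.63, and relative to fibroblast miRNAs it fell by 1.66 on the log2 scale. In both, all model arrays lay on one side of all control arrays (exact permutation test, p = 0.10, the smallest possible, and 0.13 after adjustment over the 13 comparisons). How many of all miRNAs separate in this way was not counted. With each array centred on the 4 cardiomyocyte miRNAs, the median log2 difference of the 198 miRNAs was 0.56. Of the 214 tested, 86 were then called higher and 0 lower. All the lists were chosen with earlier results of these data known, so no comparison with them is an independent test.

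Against the 4 detected reference miRNAs, miR-26a-5p was 2.18 ± 0.05 above their mean on control arrays and 2.07 ± 0.05 on model arrays, a difference of -0.11. The control and model arrays did not overlap there either (exact permutation test, p = 0.10, adjusted 0.13). Relative to the miR-30 family miR-26a-5p was higher by 0.42 in the model group, and relative to the miR-29 family by 0.14, again without overlap and with the same p.

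Relative to all 14 miRNAs described as limiting fibrosis or hypertrophy, miR-26a-5p was higher by 0.27 in the model group, with no overlap (exact permutation test, p = 0.10, adjusted 0.13).

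MiR-26b-5p moved in the same directions relative to the lists of cell types. Against the cardiomyocyte miRNAs its mean difference went from -2.05 ± 0.16 on control to -1.53 ± 0.29 on model arrays. Against the fibroblast miRNAs it went from 1.27 ± 0.12 to -0.50 ± 0.22 (SD, n = 3 each), so that it lay above their mean on control and below it on model arrays. Both sets of arrays did not overlap (exact permutation test, p = 0.10, adjusted 0.13). Its rise of 0.52 relative to the cardiomyocyte miRNAs was below the median of 0.56 that the 198 miRNAs had with that centring. As for miR-26a-5p, the comparisons with the lists are no independent tests. Relative to the reference miRNAs miR-26b-5p fell by 0.22 with the same p. Relative to the miR-30 family it was higher by 0.31 in the model group without overlap (exact permutation test, p = 0.10, adjusted 0.13). Relative to the miR-29 family the groups differed by 0.03 and overlapped (exact permutation test, p = 0.60). Relative to the 14 miRNAs described as limiting fibrosis or hypertrophy they differed by 0.16 and overlapped (exact permutation test, p = 0.40).

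**Figure D3:**
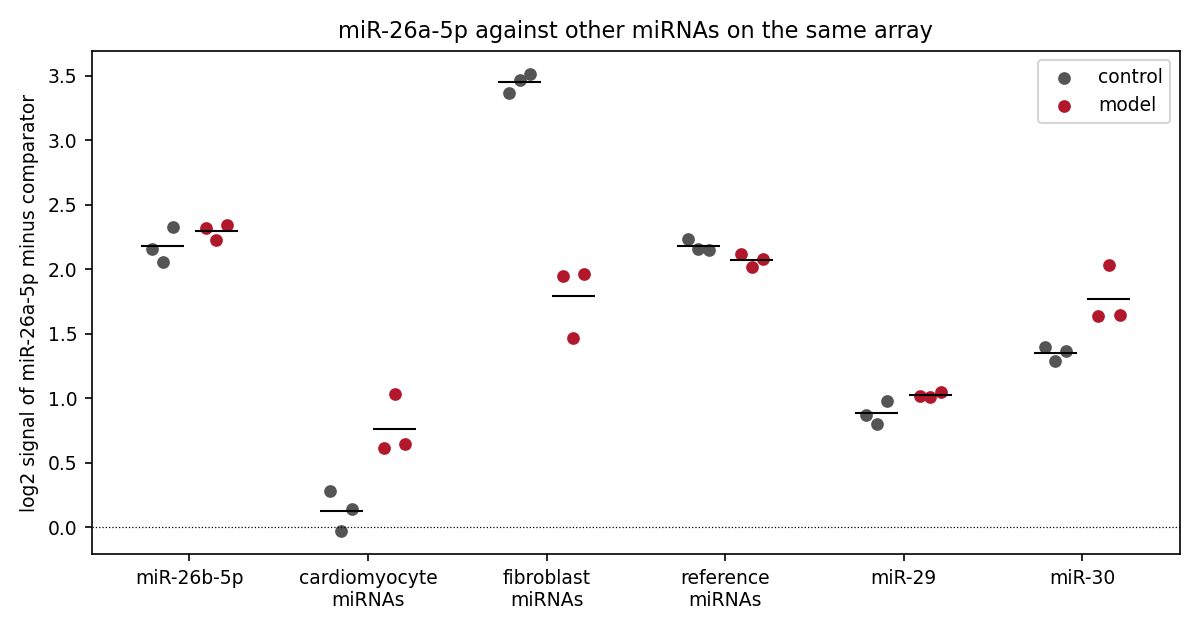
Log2 signal of miR-26a-5p minus that of miR-26b-5p, or minus the mean of the cardiomyocyte, fibroblast, reference, miR-29 or miR-30 miRNAs, on each of the 6 arrays, with group means as bars. The distance to the cardiomyocyte miRNAs widens from 0.13 to 0.76 and that to the fibroblast miRNAs narrows from 3.45 to 1.79, and that to the reference miRNAs goes from 2.18 to 2.07, each without overlap of the groups.

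In the order of mean log2 scaled signal over the 6 arrays, miR-26a-5p stood 10th of the 198 miRNAs detected on all arrays. Next above it were let-7a-5p at 3.72, miR-23b-3p at 3.37 and miR-24-3p at 3.25, and next below it miR-23a-3p at 3.12, miR-29a-3p at 3.08 and miR-125b-5p at 3.07, against 3.14 for miR-26a-5p. Of these, let-7a-5p was above it on 6 of 6 arrays and miR-24-3p on 4. MiR-23b-3p, miR-23a-3p and miR-125b-5p were below miR-26a-5p on all 3 control arrays and above it on all 3 model arrays. Their order relative to miR-26a-5p thus differed between the groups. MiR-29a-3p was above miR-26a-5p on 3 arrays and below it on the other 3, with both groups mixed, so that order was not separated.

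MiR-26b-5p stood 37th, at 0.91. Next above it were miR-497-5p at 1.03, miR-133a-3p at 1.00 and let-7e-5p at 1.00. Next below it were miR-30d-5p at 0.89, miR-378b at 0.54 and miR-322-5p at 0.52. MiR-30d-5p, although lower in the mean, was above miR-26b-5p on 5 of 6 arrays, and miR-322-5p was above it on 0 of 6.

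The profile of log2 scaled signal over the 6 arrays was compared with that of each of the other 197 miRNAs by Pearson's r, as a description with no test. The points share the arrays, the scaling and the 2 groups. For miR-26a-5p the highest values were those of miR-466b-5p (r = 0.942), miR-26b-5p (r = 0.910), miR-22-3p (r = 0.895), miR-29a-3p (r = 0.882) and miR-29c-5p (r = 0.870). For miR-26b-5p they were miR-29a-3p (r = 0.955), let-7f-5p (r = 0.934), miR-26a-5p (r = 0.910), let-7g-5p (r = 0.901) and miR-128-3p (r = 0.885). Each guide of the family was thus among the 5 miRNAs whose profile was most like that of the other.

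**Figure D4:**
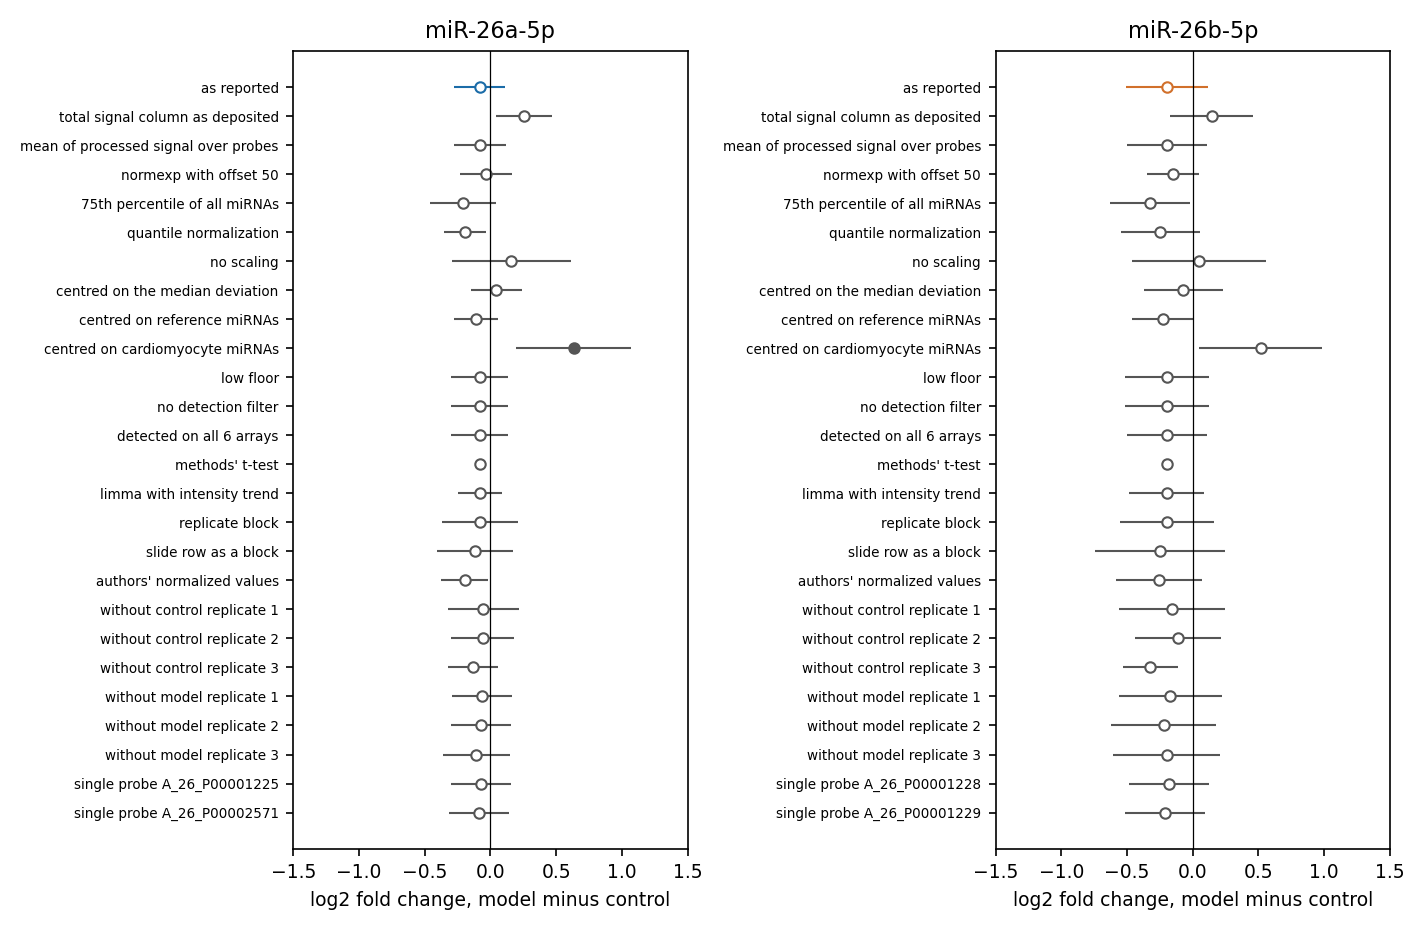
Model minus control log2 difference of miR-26a-5p and miR-26b-5p with its 95% interval (none drawn for the methods' t-test) under each way of processing the arrays, with filled symbols where the adjusted p was under 0.05. For miR-26a-5p the values run from -0.21 to 0.63 and for miR-26b-5p from -0.32 to 0.52, and centring on cardiomyocyte miRNAs gives the highest value of each.

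The size and sign of the guides' differences depended on the scaling. When all miRNAs set the percentile, the log2 difference was -0.21 for miR-26a-5p (adjusted p = 0.162) and -0.32 for miR-26b-5p (adjusted p = 0.0904). With quantile normalization it was -0.19 for miR-26a-5p (95% interval -0.35 to -0.04, adjusted p = 0.105) and -0.25 for miR-26b-5p. With the authors' normalized log2 values it was -0.20 for miR-26a-5p (95% interval -0.38 to -0.02, unadjusted limma p = 0.0370, adjusted p = 0.141) and -0.26 for miR-26b-5p. Without scaling, the log2 difference was 0.16 for miR-26a-5p and 0.045 for miR-26b-5p. With each array centred on the 4 cardiomyocyte miRNAs it was 0.63 for miR-26a-5p, the only alternative in which the limma adjusted p of a guide was under 0.05 (0.0313), and 0.52 for miR-26b-5p (adjusted p = 0.0649). With each array centred on the reference miRNAs the differences were -0.11 and -0.22. The 4 fibroblast miRNAs were higher under every one of these scalings. The cardiomyocyte miRNAs were lower in the median under each scaling except the centring on themselves, and under quantile normalization miR-1-3p and miR-133b-3p, the brightest miRNAs, are given like values on all arrays by construction. The miR-30 family was lower in the median under each scaling except the centring on cardiomyocyte miRNAs, and the miR-29 family changed sign without scaling, with the software's own totals and with centring on cardiomyocyte miRNAs.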

How the data were processed

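Total RNA of the myocardium of 3 control and 3 model rats was hybridised to 6 Agilent rat miRNA arrays of 1 colour, grouped and numbered by the sample labels. The authors deposited the intensity of each spot from Agilent Feature Extraction 10.7.1.1, background-subtracted and not scaled between arrays. They also deposited normalized log2 values, whose method is not given in the sources used here. The array files name no genome build.

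The software's total per miRNA was not used for the main values. For 289 detected totals over the 6 arrays it differed from what the detected probes of that miRNA sum to (relative tolerance 0.0001). None of these belonged to miR-26, but they enter the scaling. Each miRNA was instead the sum of its detected probes, scaled by the array's 75th percentile over 198 miRNAs (those found on 6 of 6 arrays) and floored at -6.50 on the log2 scale. The 214 miRNAs with a detected probe on all 3 arrays of either group were compared, without covariates, by lmFit and eBayes of limma 3.58.1 (R 4.3.3) with Benjamini-Hochberg adjustment at 0.05, which was tested on simulated data. Single values had exact two-sided permutation tests in Python 3.11.15 (scipy 1.17.1). P-values measure the spread between the rats of these groups.

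The members and lists were chosen with earlier results of these data known. MiRNAs named are the members, the lists, the 3 neighbours in signal on each side and the 5 most alike profiles. Alternatives were other probe summaries, background corrections, scalings, floors, filters, tests and blocks, the deposited log2 values, single probes, and leaving out each array. A block for slide or scan time was not run, since there was 1 of each. Array probe sequences were not used here, and the staining, PCR and cell culture work was not analysed here.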

Additional observations from a re-analysis of the deposited data

How the results depend on the processing

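The difference of miR-26a-5p kept its direction and its side of the threshold in 21 of 25 alternatives, and that of miR-26b-5p in 22 of 25. For miR-26a-5p the direction turned with the software's totals (0.26, adjusted p = 0.0954), without scaling (0.16), with centring on the median deviation (0.044) and with centring on cardiomyocyte miRNAs (0.63, adjusted p = 0.0313). For miR-26b-5p it turned with the software's totals (0.14), without scaling (0.045) and with centring on cardiomyocyte miRNAs (0.52). The last centring was chosen after seeing the data. These settings differ from the reported one in the reference level, and the median of the 198 miRNAs lay between -0.27, when all miRNAs set the percentile, and 0.56 with the cardiomyocyte centring. Over the scalings, miR-26a-5p relative to that median ranged from -0.10 to 0.11. Leaving out 1 array gave -0.13 to -0.05 for miR-26a-5p and -0.32 to -0.11 for miR-26b-5p. The difference in the ratio of the guides stayed between 0.05 and 0.19 in all 17 alternatives run for it. The filters, tests and blocks were not run for the ratio, which is a single permutation test.

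The number of miRNAs called, 49, became 19 without scaling, 86 with cardiomyocyte centring, 26 with the methods' t-test, 29 when slide rows were a block and 14 to 40 with 1 array left out, lowest without control array 1 and 28 without control array 3. The cause was not tested. The split of 22 higher and 27 lower became 35 and 1 with the software's totals, 19 and 47 when all miRNAs set the percentile, 23 and 16 with quantile normalization, 19 and 0 without scaling, 30 and 16 with the median deviation, 86 and 0 with cardiomyocyte centring, 15 and 29 with normexp and 23 and 14 with the authors' values. The methods' t-test at their threshold, an unadjusted p under 0.05 with over 2-fold change, called 11 miRNAs (5.14%).

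With the replicate number as a block, the differences were -0.08 for miR-26a-5p (adjusted p = 0.580) and -0.20 for miR-26b-5p (adjusted p = 0.324), and 16 miRNAs were called. Deviations of equally numbered control and model arrays correlated at -0.26, 0.03 and 0.24, so the numbers were not taken to pair the rats. With slide rows as a block the differences were -0.12 and -0.25. The second row holds model arrays alone, so it allows no comparison. In the first row, model array 1 was below the 3 control arrays for miR-26a-5p and among them for miR-26b-5p. Signals of the passenger arms were below the detection limit, so differences in them could not be measured.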
